A study of Homo sapiens with 6 samples.

Results

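The transcripts of the alkaline phosphatases and of the pseudogene ECEL1P2, which lies among them on chromosome 2, were followed in HepG2 cells after a short exposure to TGFβ. The genes are ALPP, ALPPL2, ALPI and ALPL, the 4 human alkaline phosphatase genes, together with ECEL1 and its pseudogene ECEL1P2. They were taken as the rows of the deposited table that carry these 6 gene names, out of 57773 rows, and 4 of them (ALPP, ALPPL2, ALPL and ECEL1P2) had enough reads to be among the 22747 genes tested. The genes were chosen from the comparison of TGFβ with vehicle in these same cultures, so their own differences between the groups are given as a description, with no p-value, and where calls among them are counted nothing is drawn from the count.

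RNA-seq was performed on 6 cultures of HepG2, a cell line established from a human liver tumor that keeps many hepatocyte transcripts. Cells below passage 20 were grown in MEM with 10% serum, and were treated for 3 h, in medium without serum, with either 5 ng/mL of human recombinant TGFB1 ligand (3 cultures) or vehicle alone (3 cultures). Both groups are cells of this 1 line, and the labels name no genetic change in it. The methods describe the sequenced samples as biological replicates, the labels do not say whether they came from separate passages, and the errors given here measure the spread between these cultures. The reads assigned to genes numbered 60815385 to 88415362 per vehicle culture and 73263662 to 100099136 per TGFβ culture. Levels are given as counts per 1e6 reads (CPM) after TMM scaling, a method that evens out differences in library composition. The hepatocyte markers ALB, APOA1, TTR, SERPINA1, AFP and FGB were abundant in all cultures, with a summed level between 22186 and 27073 CPM. The treatment labels were checked on 4 widely known TGFβ targets, all higher with TGFβ at a false discovery rate (FDR) under 0.05 in edgeR's quasi-likelihood test, with log2 fold changes from 1.72 (SMAD7) to 4.30 (PMEPA1).

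Alkaline phosphatases are zinc enzymes held on the outer face of the plasma membrane by a glycosylphosphatidylinositol (GPI) anchor, where they remove phosphate from substrates such as pyrophosphate and pyridoxal phosphate. ALPL encodes the tissue-nonspecific enzyme of liver, bone and kidney, which is the form found in hepatocytes. ALPI encodes the intestinal enzyme, ALPP the placental enzyme, and ALPPL2 (now named ALPG) the germ cell or placental-like enzyme, which, like ALPP, is known from germ cell and other tumors. ECEL1 encodes a membrane protein of the M13 metallopeptidase family that is expressed in neurons, and ECEL1P2 is a pseudogene of it with no known product.

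In hg19 coordinates, 5 of the 6 genes form a cluster that spans 109 kb of chromosome 2. ALPP (ENSG00000163283) lies at chr2:233243244-233247599, ALPPL2 (ENSG00000163286) at chr2:233271553-233275424 and ALPI (ENSG00000163295) at chr2:233320833-233324742, all on the plus strand. ECEL1P2 (ENSG00000244280) lies between ALPP and ALPPL2 at chr2:233250460-233252167, on the minus strand, 2.86 kb beyond the end of ALPP and 19.4 kb before the start of ALPPL2. Its coding length in the table, 1708 bases, equals its whole interval, so any read inside the interval could be counted for it. ECEL1 (ENSG00000171551) lies at chr2:233344537-233352538, on the minus strand, 19.8 kb beyond ALPI. ALPL (ENSG00000162551) is apart from the others, on the plus strand of chromosome 1 at chr1:21835858-21904905.

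The promoters of ALPP and ALPPL2 are similar, and that of ALPI shares a short stretch with both. The sequences are shown because ALPP and ALPPL2 are alike in much of the sequence in front of their start sites. Any part of these sequences in the levels of the genes was not tested. RefSeq promoter windows of 300 bases (250 before and 50 after the start, GRCh38.p14) were matched for 5 of the 6 genes, and ECEL1P2 had no entry in the table used. The windows of ALPP and ALPPL2 were identical at 82.7% of the aligned columns and shared an unbroken stretch of 64 bases, while that of ALPI was identical to ALPP at 56.0% and to ALPPL2 at 57.1%. The 250 bases before each start are printed 5′ to 3′, with capitals marking the longest stretch that the 3 windows share.
ALPP promoter, chr2:232378501-232378750, plus strand: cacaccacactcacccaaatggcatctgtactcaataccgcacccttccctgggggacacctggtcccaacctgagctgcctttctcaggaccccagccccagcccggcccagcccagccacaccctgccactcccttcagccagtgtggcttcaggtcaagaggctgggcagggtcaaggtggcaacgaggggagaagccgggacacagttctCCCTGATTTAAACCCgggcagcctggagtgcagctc
ALPPL2 promoter, chr2:232406594-232406843, plus strand: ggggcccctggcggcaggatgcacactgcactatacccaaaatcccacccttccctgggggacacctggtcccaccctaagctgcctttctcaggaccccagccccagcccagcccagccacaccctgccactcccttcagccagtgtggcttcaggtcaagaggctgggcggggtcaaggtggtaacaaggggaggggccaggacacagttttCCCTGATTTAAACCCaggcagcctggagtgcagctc
ALPI promoter, chr2:232455903-232456152, plus strand: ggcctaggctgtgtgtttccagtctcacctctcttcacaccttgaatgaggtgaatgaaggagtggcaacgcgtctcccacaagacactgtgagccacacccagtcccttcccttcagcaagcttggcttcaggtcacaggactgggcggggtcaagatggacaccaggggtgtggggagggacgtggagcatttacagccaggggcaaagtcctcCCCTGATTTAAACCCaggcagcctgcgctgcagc
The capitals, CCCTGATTTAAACCC, are 15 bases long and begin 36 bases before the start of ALPP and ALPPL2 and 34 bases before that of ALPI. Of 34943 promoter windows, 3 held this stretch on either strand. No window of ALPP, ALPPL2, ALPI or ECEL1 held the core SMAD motif (CAGAC, or GTCTG on the other strand), which 45.3% of all windows held. The first of the 3 ALPL windows held 3 matches and the third held 1. No window of the 5 genes held the AP-1 motif TGANTCA (7.72% of all windows) or, read on the coding strand, TATAAA, for which 7.35% of all windows had a match. The E-box CANNTG, held by 68.7% of all windows, had 3 matches in ALPP, 1 in ALPPL2 and 0 in ALPI. The GC box GGGCGG (or CCGCCC), held by 44.9% of windows, had 1 match in ALPPL2, 1 in ALPI and 0 in ALPP. TATAAA was searched on the coding strand only and the other motifs on both strands, and a base could belong to matches of several motifs.

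The coding sequences are also close to each other, which limits how surely a short read can be given to 1 gene. Over the longest coding sequence of each gene (GENCODE on GRCh37), ALPP and ALPPL2 were identical at 97.3% of the aligned columns, ALPP and ALPI at 88.5%, ALPPL2 and ALPI at 88.8%, and ALPL with any of the 3 at 62.4% to 62.8%. Of all 51-base windows of the ALPP transcript, the length of 1 read, 26.1% occurred unchanged in the ALPPL2 transcript, and 28.9% of the ALPPL2 windows occurred in ALPP. The shares between ALPI and ALPP or ALPPL2 were 0.313% to 1.29%, and ALPL shared none with the others. ECEL1P2 shared none of its 1658 windows with ECEL1, ECEL1P3 or AC068134.5, the related rows nearby. Its best matching stretch with ECEL1 covered 1065 aligned columns with 85.1% identity. How the authors' counting treated reads that match more than 1 gene is not given in the sources used here, so the split between ALPP and ALPPL2 carries an uncertainty beyond that of counting.

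ALPP, the placental enzyme, was low in every vehicle culture and higher in every TGFβ culture. It had 17, 2 and 12 reads in vehicle cultures 1, 2 and 3, and 58, 42 and 88 reads in TGFβ cultures 1, 2 and 3. The lowest TGFβ culture stood well above the highest vehicle culture, and vehicle culture 2 was nearly empty. The mean level was 0.137 ± 0.0979 CPM (SD, n = 3) with vehicle and 0.776 ± 0.375 CPM (SD, n = 3) with TGFβ. The log2 fold change was 2.51 (SE 0.56), and 2.49 (SE 0.39) when the culture number was kept as a block. Within culture numbers 1, 2 and 3 the CPM ratio of TGFβ to vehicle was 3.11, 21.6 and 6.19, the middle value resting on the 2 reads of vehicle culture 2.

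ALPPL2, the germ cell form, was the most abundant of the cluster and behaved like ALPP. In the order of the culture numbers, its reads were 110, 19 and 63 in the vehicle group and 277, 190 and 224 in the TGFβ group. The groups did not overlap, and vehicle culture 2 again stood below the others. The mean level was 0.833 ± 0.534 CPM (SD, n = 3) with vehicle and 2.76 ± 0.365 CPM (SD, n = 3) with TGFβ. These gave a log2 fold change of 1.73 (SE 0.44), or 1.86 (SE 0.37) with the block. The within-number ratios were 2.29, 10.3 and 3.00. Without vehicle culture 2 the log2 fold change of ALPPL2 was 1.27 and that of ALPP was 1.98.

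ALPI, the intestinal enzyme, was close to the limit of detection and was not among the genes tested. Its reads numbered 8, 0 and 4 in the vehicle cultures, against 11, 11 and 8 in the TGFβ cultures. On the CPM scale the TGFβ cultures (0.110 to 0.137) lay just above the vehicle cultures (0 to 0.0906). A count of 0 allows up to 3 reads in that culture. The ratio of the summed levels was 2.32, with a 95% interval of 1.16 to 4.99 (exact binomial on the reads of the group sums), which covers counting error only and not the spread between cultures. It was 4.30 without vehicle culture 1 and 1.49 without vehicle culture 2.

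ALPL, the tissue-nonspecific enzyme of hepatocytes, had the same order of culture numbers in both groups and differed less between the groups than between the cultures within them. It had 216, 123 and 52 reads in vehicle cultures 1, 2 and 3 and 284, 167 and 56 in the TGFβ cultures. In both groups culture 1 was highest and culture 3 lowest, and the groups overlapped over nearly their whole range. The mean level was 1.59 ± 0.807 CPM (SD, n = 3) with vehicle and 1.92 ± 1.09 CPM (SD, n = 3) with TGFβ, and the log2 fold change was 0.27 (SE 0.46). With the block the value was 0.24 and the SE fell to 0.17. The within-number ratios were 1.20, 1.40 and 0.910. The direction turned when vehicle culture 3 or TGFβ culture 1 was left out, with log2 fold changes of -0.02 and -0.18.

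ECEL1P2 had no read in any vehicle culture and was found in every TGFβ culture. Its reads were 0, 0 and 0 in the vehicle cultures against 42, 38 and 25 in the TGFβ cultures, or 0.433, 0.472 and 0.343 CPM. Since the strand setting of the counting is not stated, these reads cannot be assigned to the strand of ECEL1P2. The mean with TGFβ was 0.416 ± 0.0663 CPM (SD, n = 3), a narrower spread relative to its mean than that of ALPP. Taken against a floor of 3 reads over the vehicle group, the level was 32.5-fold higher with TGFβ, a bound that leaves out counting error in the TGFβ reads. The lower limit of the 95% exact binomial interval of the ratio of the summed levels was 26.0, which covers counting error only. The bound was 20.1 without vehicle culture 1 and 20.9 without vehicle culture 2, since the floor is then set over fewer vehicle libraries. For ECEL1, the parent gene of the pseudogene, 12, 4 and 0 reads were counted in the vehicle cultures, against 7, 6 and 3 in the TGFβ cultures. Its groups overlapped, it was not tested, and the ratio of the summed levels was 0.930 (95% exact binomial interval 0.435 to 1.99, counting error only). That ratio was 2.29 without vehicle culture 1, which held most of the vehicle reads.

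**Figure D1:**
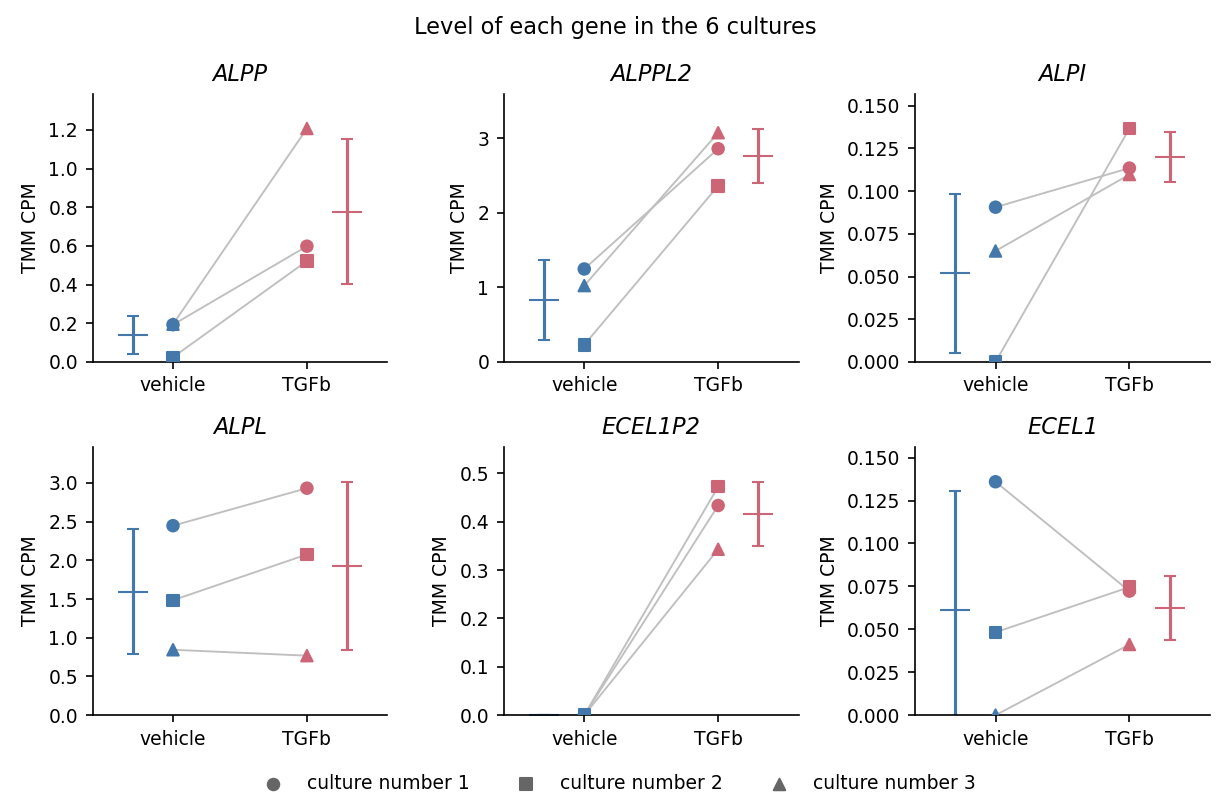
Level of each of the 6 genes in TMM CPM (vertical axis, each panel with its own scale from 0) for vehicle and TGFβ cultures. Symbols mark culture numbers 1 to 3, grey lines join the same number, and the crosses with bars give mean ± SD (n = 3, cut at 0). ALPP, ALPPL2, ALPI and ECEL1P2 have all TGFβ cultures above all vehicle cultures, while ALPL and ECEL1 overlap.

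Among all tested genes, 3.11% were called higher with TGFβ and 1.01% lower at an FDR under 0.05. Of the 4 tested members, ALPP and ECEL1P2 were among the genes called higher and none was among those called lower. With the culture number as a block 8.08% of all genes were called higher and 3.75% lower, and ALPPL2 joined the former. Nothing is read from these counts, since the members were chosen from this contrast. In 10.4% of all tested genes every TGFβ culture lay above every vehicle culture, as it did in 3 of the 4 tested members (ALPP, ALPPL2 and ECEL1P2). ALPP and ECEL1P2 had enough reads for testing only because of their TGFβ cultures, which favors such a gap. Nothing is read from this count either. Ordered by log2 fold change from the highest, ECEL1P2 stood at rank 2, ALPP at 28, ALPPL2 at 94 and ALPL at 3072 of the 22747 genes. The rank of ECEL1P2 rests on a fitted fold change against 0 reads. All 4 were low in absolute terms: 20.9% of the tested genes had a lower mean CPM than ALPP, 36.3% than ALPPL2, 36.2% than ALPL and 9.59% than ECEL1P2. ALPP was no longer called when any 1 of the 6 cultures was left out, ALPPL2 was called without vehicle culture 2, and ECEL1P2 was called in all 6 of these fits. DESeq2 called ALPP alone and gave no adjusted value for ECEL1P2, and limma-voom called ALPP, ALPPL2 and ECEL1P2. Nothing is read from these calls either, since every fit used the contrast from which the members were chosen. ECEL1P2 was chosen with 0 reads in each vehicle culture, so its calls add no evidence.

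To set the genes beside each other, CPM was divided by the coding length in kb. On this per-length scale ALPL (0.528 ± 0.268, SD, n = 3) and ALPPL2 (0.334 ± 0.214) had the highest mean levels with vehicle and did not differ beyond their spread, followed by ALPP (0.0449 ± 0.0320), with ECEL1 (0.0207 ± 0.0232) and ALPI (0.0197 ± 0.0177) level with each other. With TGFβ the highest mean was that of ALPPL2 (1.11 ± 0.146), then ALPL (0.639 ± 0.361), then ALPP (0.254 ± 0.123) and ECEL1P2 (0.244 ± 0.0388), which stood together, and then ALPI (0.0456 ± 0.00555) and ECEL1 (0.0211 ± 0.00628). The share of ALPL in the summed per-length level of the 4 phosphatases was 57.6%, 83.1% and 36.0% in vehicle cultures 1 to 3 and 41.2%, 37.1% and 13.2% in TGFβ cultures 1 to 3. It was lower with TGFβ within each culture number, though culture 3 with vehicle lay below culture 1 and 2 with TGFβ. ALPL was thus the larger part of the phosphatase transcripts in vehicle cultures 1 and 2 only, and ALPPL2 exceeded it in the other 4 cultures. How reads matching both ALPP and ALPPL2 were counted is not given, so their levels beside that of ALPL are uncertain too.

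**Figure D2:**
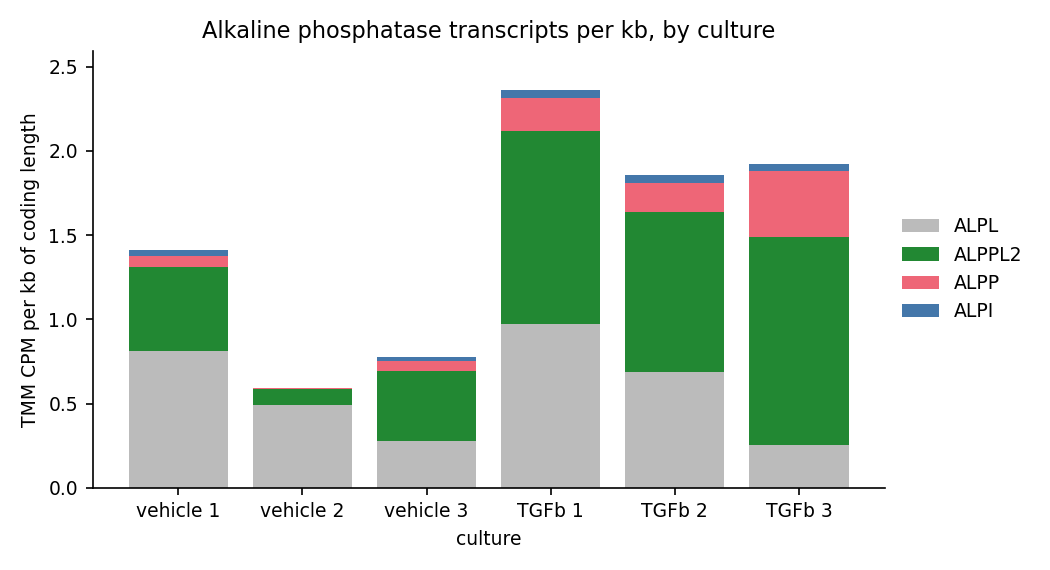
Stacked levels of the 4 alkaline phosphatase transcripts in TMM CPM per kb of coding length (vertical axis, from 0), 1 bar per culture. The ALPPL2 part is larger in each TGFβ culture than in any vehicle culture, while the ALPL part is largest in culture number 1 and smallest in number 3 in both groups.

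ALPP also took a somewhat larger part of the reads shared out between it and ALPPL2. Its share of their summed reads was 13.4% (95% exact binomial interval 8.00 to 20.6), 9.52% (1.17 to 30.4) and 16.0% (8.55 to 26.3) in the vehicle cultures. In the TGFβ cultures it was 17.3% (13.4 to 21.8), 18.1% (13.4 to 23.7) and 28.2% (23.3 to 33.5). Each TGFβ share was above each vehicle share, but the intervals, which cover counting error only, overlapped between the groups except where TGFβ culture 3 was set against vehicle culture 1. Per kb, ALPPL2 stood 5.86, 5.55 and 3.12 times as high as ALPP in the TGFβ cultures. ECEL1P2 did not keep a fixed ratio to its neighbor: its per-length level was 1.30, 1.62 and 0.509 times that of ALPP in TGFβ cultures 1, 2 and 3, since culture 3 had the most ALPP and the least ECEL1P2.

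Over the 6 cultures, log2 CPM (prior count 2) of ALPP and ALPPL2 correlated at r = 0.976, ALPP and ECEL1P2 at 0.823, and ALPPL2 and ECEL1P2 at 0.796. ALPL correlated with the other 3 between -0.0713 and 0.181. These are descriptions over 6 points that share libraries and a split into 2 groups, and 26.1% of the ALPP read windows occur in ALPPL2. The 5 tested genes most like ALPP in this measure were TPPP2, VAMP3, SAP130, AQP10 and U91328.21 (r from 0.990 to 0.992), and those most like ALPPL2 were CDCA5, DGAT2L7P, SIK3, ATP6V1G2 and PRDM4 (0.987 to 0.998). For ALPL they were TEKT4P2, SYCP3, AGAP3, HEATR2 and C1orf159 (0.993 to 0.998), whose mean levels differed little between the groups, as with TEKT4P2 at 23.6 CPM with vehicle and 24.0 CPM with TGFβ. For ECEL1P2 they were KLF7, SKIL, MFHAS1, NKD1 and RP11-539L10.2 (0.998 to 1.00). ECEL1P2 had no read in any vehicle culture, so a high r with it mainly picks genes whose 2 groups lie apart. Nothing is read from these r values. KLF7, a transcription factor, had a mean of 15.8 CPM with vehicle and 70.4 CPM with TGFβ, and SKIL, a repressor of SMAD proteins, had 23.3 and 127 CPM.

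The rows around the cluster were examined to see how far along the chromosome such differences reached. Within 250 kb of the 5 chromosome 2 members lay 20 other rows, of which 10 were tested. Of these 1, EFHD1, was called higher and none lower, where 3.11% and 1.01% of all genes tested were. For EFHD1, a calcium-binding protein of mitochondria, 73, 48 and 44 reads were counted in the vehicle cultures, against 198, 159 and 102 in the TGFβ cultures. All its TGFβ cultures were above the vehicle cultures, with a log2 fold change of 1.35 (SE 0.23, edgeR FDR = 0.00976). It no longer passed the threshold without vehicle culture 2 or without vehicle culture 3, where the log2 fold change was 1.22 and 1.36. The median log2 fold change of the 10 rows was -0.03, beside -0.01 over all genes tested. The nearest tested rows on either side of the cluster did not pass the threshold. DIS3L2, an exoribonuclease gene that ends before ALPP, was counted at 3153, 2933 and 2156 reads in the vehicle group and 3444, 2905 and 2532 in the TGFβ group (log2 fold change 0.0034, SE 0.07, edgeR FDR = 0.990), and PRSS56, a serine protease gene beyond ECEL1, had 43, 10 and 16 and then 35, 18 and 27 (0.12, SE 0.46, edgeR FDR = 0.949).

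Among the rows of the window without enough reads for testing were the other ECEL1 pseudogenes and an antisense row. ECEL1P3, 27.2 kb before ALPP, had 1 read in vehicle culture 2 and none elsewhere, and AC068134.5 and AC068134.6, just beyond ALPPL2, had none in any culture. AC068134.8 lies inside ALPP on the opposite strand. Its counts were 8, 0 and 5 in the vehicle group and 11, 12 and 28 in the TGFβ group, lowest in vehicle culture 2 and highest in TGFβ culture 3, the same extremes as ALPP. Strand is not stated for the counting, so reads of this row and of ALPP cannot be told apart. DIS3L2P1, the row before ALPI, was counted at 2, 4 and 2 reads in the vehicle group and 2, 5 and 14 in the TGFβ group.

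**Figure D3:**
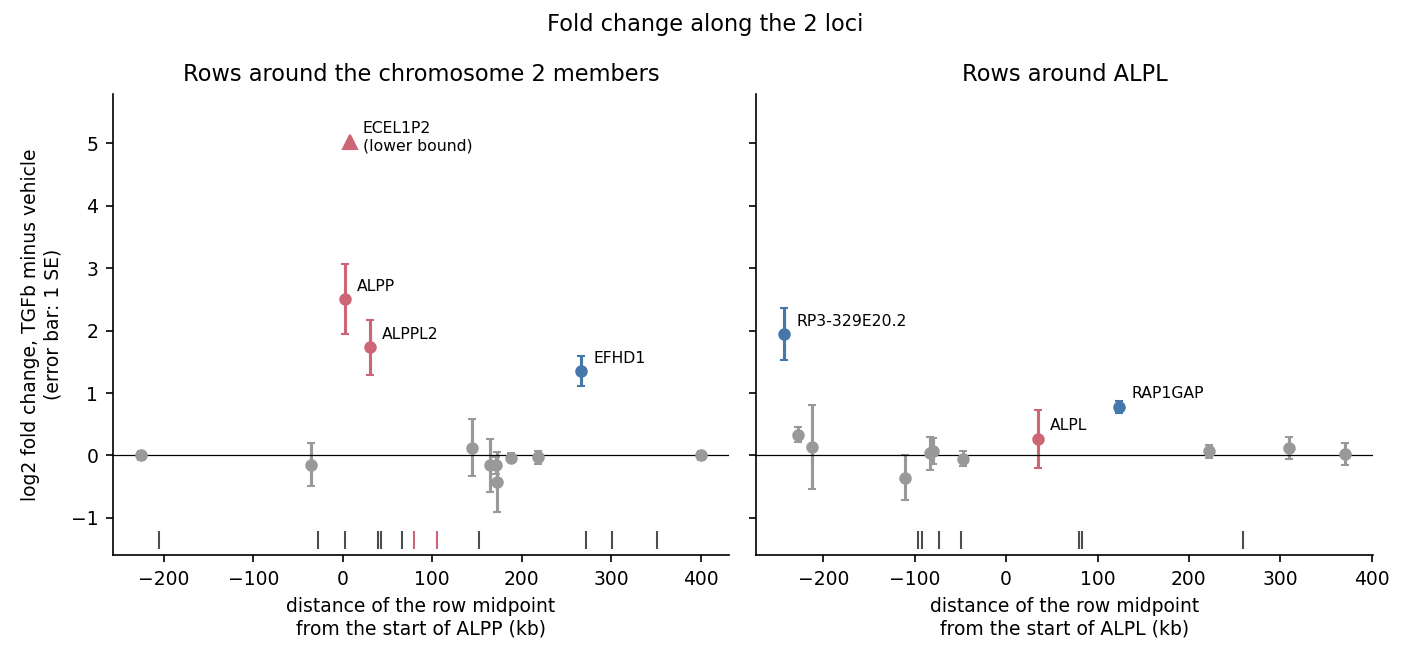
Log2 fold change with 1 SE (vertical axis) for each tested row within 250 kb of the chromosome 2 genes (left) and of ALPL (right), against distance in kb from the start of ALPP or ALPL. Red marks the members, blue other rows with an FDR under 0.05 and grey the rest. The triangle is the lower bound for ECEL1P2, and ticks near the bottom are rows not tested. In the left panel the other tested rows lie between -0.43 and 0.12, except EFHD1 at 1.35.

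Around ALPL, 18 other rows lay within 250 kb, 11 of which were tested, with a median log2 fold change of 0.07. Of these, 2 were called higher and none lower (3.11% and 1.01% of all genes tested), while ALPL itself overlapped between the groups. RAP1GAP, a GTPase-activating protein for RAP1, was counted at 2834, 2672 and 1769 reads in the vehicle group and 5326, 4627 and 3459 in the TGFβ group (log2 fold change 0.78, SE 0.09, edgeR FDR = 0.00123). A row inside ECE1 (ENSG00000236936) had only 6, 7 and 4 reads in the vehicle group and 36, 14 and 22 in the TGFβ group (1.94, SE 0.42, edgeR FDR = 0.0303), and it kept its call only without TGFβ culture 2 among the fits that left out 1 culture. ECE1, endothelin converting enzyme and a relative of ECEL1, passed the threshold with the block only (log2 fold change 0.33 in both fits, edgeR FDR without the block = 0.218). The nearest row before ALPL, NBPF3, had 635, 588 and 410 reads in the vehicle group and 604, 533 and 539 in the TGFβ group (-0.05, SE 0.12, edgeR FDR = 0.918), and RP11-63N8.3, the nearest row beyond it, had 2 reads in TGFβ culture 1 alone.

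Pyrophosphate, a substrate of the phosphatases, was followed through a list of 17 genes linked to phosphate or pyrophosphate, 15 of which were tested. None was called in either direction by edgeR's quasi-likelihood test, 2 had an unadjusted p under 0.05 (13.3%, beside 13.7% of all genes tested), and the median log2 fold change was 0.01. With the block 2 were called higher and 1 lower (8.08% and 3.75% of all genes tested), and with DESeq2 1 was called higher and 1 lower. ENPP1, the ectoenzyme that makes the pyrophosphate which ALPL removes, had a mean of 145 CPM with vehicle and 116 CPM with TGFβ (log2 fold change -0.32, SE 0.09, edgeR FDR = 0.0840) and was called lower with the block. ANKH, which mediates the release of ATP and pyrophosphate, had 50.7 and 64.2 CPM (0.34, SE 0.08, edgeR FDR = 0.0575), and ABCC6, a transporter that promotes the release of ATP from liver cells, had 79.4 and 93.6 CPM (0.24, SE 0.17, edgeR FDR = 0.651). Both were called higher with the block. The most abundant genes of the list were AHSG (fetuin-A), SPP1 (osteopontin) and the phosphate carrier SLC20A1, with log2 fold changes of -0.04, 0.11 and 0.06, none past the threshold in either fit.

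The other substrate, pyridoxal phosphate, is a form of vitamin B6, and all 6 genes of a vitamin B6 list were tested. None was called in either direction, 2 had an unadjusted p under 0.05, where 13.7% of all genes tested did, and the median log2 fold change was -0.01. With the block, PDXK, the kinase that makes pyridoxal phosphate, was called higher (116 CPM with vehicle, 140 CPM with TGFβ, log2 fold change 0.27, SE 0.09, edgeR FDR without the block = 0.174) and PDXP, the phosphatase that removes its phosphate inside the cell, lower (39.6 and 31.0 CPM, -0.35, SE 0.11, edgeR FDR without the block = 0.159). Both shifts were small beside those of ALPP and ALPPL2.

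The GPI anchor list holds 31 genes that build, attach, trim or cut the anchor of these enzymes, all of them tested. None was called in either direction, none had an unadjusted p under 0.05, and log2 fold changes ran from -0.15 to 0.26 around a median of 0.02. The 4 most abundant were PIGT (121 CPM with vehicle), DPM1 (96.0), TMEM8A (91.7) and PIGS (70.8). With the block TMEM8A, PIGC and PIGQ were called higher, where 8.08% of all genes tested were, with log2 fold changes of 0.26, 0.21 and 0.26. Of the M13 metallopeptidase list, the family of ECEL1, 4 of 6 genes were tested and none was called in either direction. An unadjusted p under 0.05 was found for 2 of the 4 (50%, beside 13.7% of all genes tested), ECE1 higher and ECE2 lower. The median log2 fold change was -0.06. ECE1 was called higher with the block, and MME (neprilysin) and KEL had too few reads for testing.

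**Figure D4:**
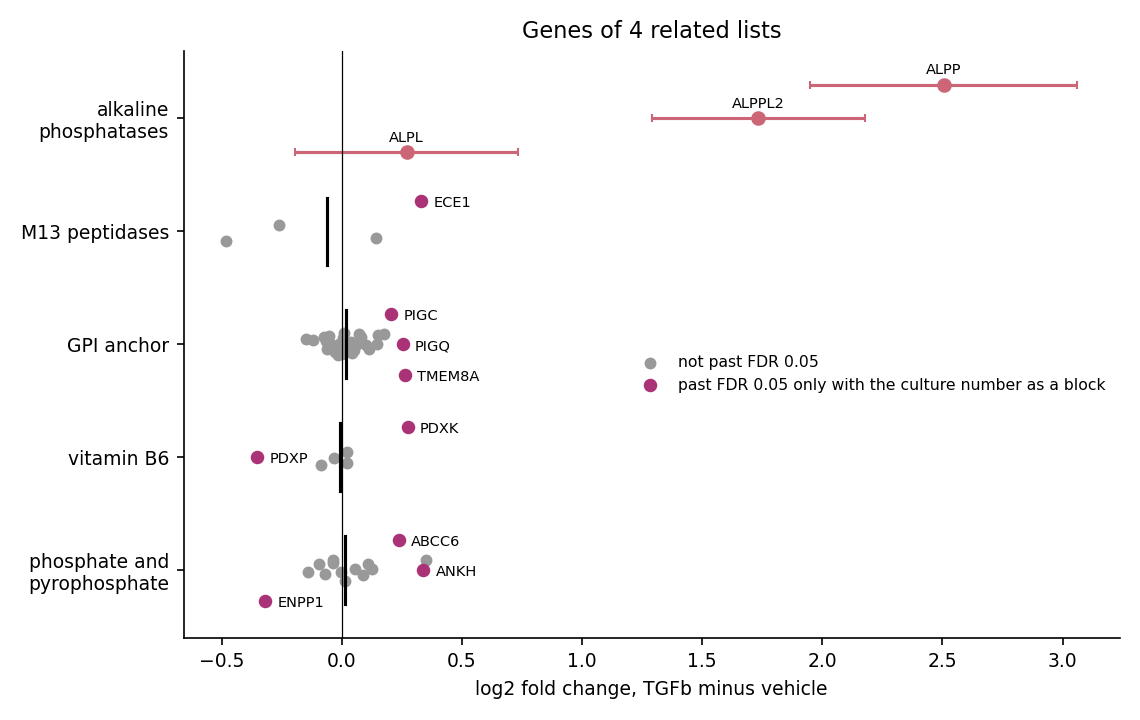
Log2 fold change of TGFβ against vehicle (horizontal axis) for each tested gene of 4 related lists, with black bars at the list medians and, at the top, ALPP, ALPPL2 and ALPL with 1 SE. Purple points passed an FDR of 0.05 in edgeR's fit with the culture number as a block, but not in the same fit without it. ANKH, ENPP1 and PDXP also passed in some other fits without the block. All list genes lie between -0.48 and 0.35.

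Markers of the tissues for which the phosphatases are named were examined beside them. Of 12 placental trophoblast markers, CGA, CSH1 and PSG3 had no read in any culture, and the summed level, 90.4% of it HLA-G, was 15.9 to 28.0 CPM with vehicle and 20.7 to 25.1 CPM with TGFβ (exact permutation test, two-sided, p = 0.8, where 3 against 3 cultures allow no p below 0.1). This test and those of the other marker lists did not keep the culture numbers paired. GCM1, a trophoblast transcription factor, was the 1 marker of this list that was called without the block: its counts were 17, 32 and 21 in the vehicle group and 97, 72 and 61 in the TGFβ group (log2 fold change 1.58, SE 0.29, edgeR FDR = 0.0125), though not without vehicle culture 3, where the log2 fold change was 1.66. KRT7, an epithelial keratin, had 14, 12 and 18 reads and then 45, 50 and 30 (1.36, SE 0.34, edgeR FDR = 0.0615), and was called higher with the block. The other tested markers of this list were HLA-G, ERVW-1 and PAPPA, with log2 fold changes of 0.01, -0.18 and 0.60. None of them was called in either fit, and the rest of the list had too few reads for testing. Of 8 germ cell tumor markers, KIT and TFAP2C had no read, and the summed level was 1.25 to 1.43 CPM with vehicle and 1.41 to 1.91 CPM with TGFβ (exact permutation p = 0.2). NANOG, a pluripotency factor, was at 9, 11 and 4 reads in the vehicle group and 21, 39 and 18 in the TGFβ group (1.61, SE 0.44, edgeR FDR = 0.0874), and was called higher with the block. The other tested markers of this list were POU5F1, which made up 63.5% of the sum, LIN28A and NANOS3. Their log2 fold changes were 0.01, -0.06 and 1.05, and none was called in either fit. Of 8 intestinal markers CDX1 and SI had no read, and VIL1 made up 99.6% of the sum, which was 384 to 434 CPM with vehicle and 405 to 435 CPM with TGFβ (exact permutation p = 0.6). VIL1 and FABP2, the tested markers of this list, had log2 fold changes of 0.05 and -0.53 and were not called in either fit.

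The remaining marker lists covered other cells in which ALPL is known. Of 7 osteoblast markers DMP1, IBSP and SP7 had no read, and the summed level, 91.5% of it COL1A1, was 6.11 to 10.9 CPM with vehicle and 11.5 to 13.4 CPM with TGFβ. The fibroblast sum, also mostly COL1A1, was 5.54 to 10.0 and 10.8 to 12.6 CPM. Both gave an exact permutation p = 0.1, the smallest possible in this unpaired test, and no gene of either list was called without the block. COL1A1, a collagen chain, was called higher with it (log2 fold change 0.57, SE 0.20 without the block and 0.60, SE 0.12 with it). The leukocyte sum of 5 markers was 1.99 to 3.53 CPM with vehicle and 2.62 to 3.94 CPM with TGFβ (exact permutation p = 0.4), with CD3E at 0, and the hepatocyte sum, 62.0% of it ALB, gave p = 0.8 in the same exact test. Of the hepatocyte markers, none was called without the block, and FGB and TTR were called lower with it (log2 fold changes of -0.22 and -0.25). The part of any of these in the levels of the phosphatases was not tested. In a whole culture, fewer cells with a transcript and less of it per cell cannot be told apart.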

How the data were processed

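The authors sequenced mRNA libraries (TruSeq v2, paired 51-base reads) from 6 HepG2 cultures, aligned them to hg19 and deposited raw counts of each gene in every culture as 1 table. They also deposited RPKM values, which were used only for a check: among the members they were 0.775 to 0.849 times CPM per kb. The submitters' processing notes name bcl2fastq, TopHat2 2.0.6 and HTSeq, and the methods name MAPRseq. For the annotation release, the strand setting and the rule for overlapping or multiply matching reads, nothing is given in the sources used here. The table had 0 columns of other samples. Groups and culture numbers were taken from the labels.

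Counts were analysed with edgeR 4.0.16 (R 4.3.3) using TMM, filterByExpr, the robust quasi-likelihood F test and Benjamini-Hochberg adjustment over 22747 genes. log2 CPM used a prior count of 2. The floor for a group at 0 was 3 reads, and intervals cover counting error only. Cultures with the same number deviated together across genes (r = 0.366, 0.227 and 0.316, against at most 0.0101 for other pairs), so the number was taken to pair them. Both cultures of number 1 were listed under lane 1 and both of number 2 under lane 3. Those of number 3 were under lanes 4 (vehicle) and 5 (TGFβ). A shared lane and a shared culture number cannot be told apart for numbers 1 and 2, nor lane and treatment within number 3. No 2 cultures of a group agreed within counting noise. Steps were tested on simulated data, where unchanged genes took a larger share of the calls than the FDR threshold states. Alternatives were DESeq2 1.42.0, limma-voom (limma 3.58.1), other scalings, other filters, the block and leaving out each culture. Sequences were aligned with Biopython. Identity was computed on coding bases, since no protein table was used here.

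The members and gene lists were chosen with earlier results of these data known. Named genes were the members, list genes that passed the threshold or the most abundant of each list, rows of the 250 kb windows that passed or adjoin a member, the 5 genes most correlated with each tested member, known TGFβ targets and the cell type markers. DIS3L2P1 and AC068134.6 were singled out after their values were seen. A stretch of coding sequence is not reported here.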

Additional observations from a re-analysis of the deposited data

How the results depend on the processing

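The count of called genes (937, 707 higher and 230 lower) was 1420 with DESeq2 (408 lower) and 2690 with the culture number as a block (1837 higher, 853 lower), and 366 genes were lower with no filter. Leaving out 1 culture gave 485 to 998 genes, 394 to 778 higher and 91 to 220 lower. The lowest counts were those without vehicle culture 3 (485), vehicle culture 2 (518) and TGFβ culture 2 (561). With the block, the numbers of list genes called higher and lower were 2 and 1 for phosphate, 1 and 1 for vitamin B6, 3 and 0 for GPI anchor and 1 and 0 for M13 peptidases. Of all genes tested, 8.08% were called higher and 3.75% lower with the block. In the phosphate list 1 gene was higher with no filter, with DESeq2 or with at least 10 counts in every library, and 1 was lower with no filter or DESeq2. In the vitamin B6 list 1 was lower with no filter. Around ALPL, 1 row was called with at least 10 counts or DESeq2. Leaving out 1 culture gave 0 to 1 phosphate genes higher, 0 to 1 rows around the cluster and 1 to 2 around ALPL.

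Among the members, leaving out 1 culture gave log2 fold changes of 1.98 to 2.91 for ALPP, 1.27 to 2.18 for ALPPL2 and -0.18 to 0.71 for ALPL, which reversed without vehicle culture 3 (-0.02) and TGFβ culture 1 (-0.18). The bound for ECEL1P2 was 20.1 to 34.8, and the read ratio was 1.49 to 4.30 for ALPI and 0.684 to 2.29 for ECEL1. The causes were not tested. The paired fit changed the call of ALPPL2 among the members. In vehicle culture 2 ALPP had 2 reads, so counting error alone limits its ratio for number 2. ALPPL2 had 19 reads there, so its ratio is limited less, and the cause of its low level in that culture was not tested.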
